A study of Mus musculus with 6 samples.

Results

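The genes described here are 40 genes of protein folding in the cytosol and the mitochondria, 38 chaperones and cochaperones and the 2 heat shock factors Hsf1 and Hsf2. They were chosen by name, as the heat shock genes of the HSF1 type, the subunits of the TRiC/CCT chaperonin and of prefoldin, and the mitochondrial chaperonin with its partners. Earlier results of these data were known when the choice was made. The table's own symbols matched 38 of the 40, and Hsph1 was found through its accession under the older symbol Hsp105, so that 39 genes had 57 of the array's 25697 probes. No probe read here carried the name Hspa1b. Of the 40 genes, 33 had a probe above background on at least 3 of the 6 arrays and were tested among 8990 genes.

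The cells were mouse embryonic fibroblasts (MEFs) of the C57BL/6 background, grown in DMEM with 10% FBS to 50% confluence. In 3 samples they carried truncated NELF-B, titled ATG-NELF-B, and in 3 samples full-length NELF-B, titled FL-NELF-B. NELF-B is a subunit of the negative elongation factor, which holds RNA polymerase II near promoters, and the series is about translation of this protein from a start codon other than AUG. The labels do not say how either form was brought into the cells, whether the cells were clones or whether the replicates came from separate cultures. All p-values therefore rest on the spread among 3 arrays of a form, and that spread may be technical.

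Chaperones bind unfolded or newly made proteins and help them to fold. HSP70 proteins are loaded with clients by J-domain proteins and reset by nucleotide exchange factors such as HSP110 and BAG proteins, HSP90 finishes the folding of kinases and receptors with its own cochaperones, and small heat shock proteins hold unfolded clients. TRiC/CCT is a ring-shaped chaperonin for actin and tubulin, to which prefoldin hands over nascent chains, and HSP60 with HSP10 form the chaperonin of the mitochondrial matrix. Under heat or proteotoxic stress the factor HSF1 binds heat shock elements, repeats of a short motif in alternating orientation, and raises many of these genes together.

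Promoter sequences from the RefSeq table (build GRCm38.p6) matched 32 of the 40 genes and gave 42 windows of 250 bases before a gene start. The 3-unit heat shock element, GAANNTTCNNGAA or TTCNNGAANNTTC on the other strand, was present in a window of 3 of the 32 genes (9.38%), Dnajb6, Hspd1 and Hspe1, against 0.514% of all 27025 genes in the table. The 2-unit element, GAANNTTC or TTCNNGAA, each of which reads the same on both strands and lies within every 3-unit element, was present in 11 of the 32 (34.4%), against 14.5% of all genes. Hspe1 and Hspd1 are transcribed away from each other. The Hspe1 window and a window of Hspd1 share the same element at chr1:55088059-55088076, 18 bases that hold 2 overlapping 3-unit matches. It lies 72 to 89 bases before the Hspe1 start and 127 to 144 bases before the inner annotated start of Hspd1. From the outer annotated start of Hspd1, it lies within the gene. The windows of these 2 genes, of Hsph1 and of Dnajb6 are shown because the mitochondrial pair shares this element and Hsph1 had the largest positive log2 fold change of the tested members. The capitals mark the matched element.
Hspe1: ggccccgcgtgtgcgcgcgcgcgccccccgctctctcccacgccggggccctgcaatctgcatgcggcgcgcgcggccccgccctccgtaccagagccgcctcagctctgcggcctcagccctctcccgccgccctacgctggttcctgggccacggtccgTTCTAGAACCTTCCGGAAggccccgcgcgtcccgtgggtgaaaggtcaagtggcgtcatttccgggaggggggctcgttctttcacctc
Hspd1: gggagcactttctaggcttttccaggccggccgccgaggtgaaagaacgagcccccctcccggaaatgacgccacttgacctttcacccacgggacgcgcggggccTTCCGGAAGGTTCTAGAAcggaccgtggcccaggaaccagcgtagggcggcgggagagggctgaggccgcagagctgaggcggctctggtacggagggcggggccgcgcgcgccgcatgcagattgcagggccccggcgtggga
Hsph1: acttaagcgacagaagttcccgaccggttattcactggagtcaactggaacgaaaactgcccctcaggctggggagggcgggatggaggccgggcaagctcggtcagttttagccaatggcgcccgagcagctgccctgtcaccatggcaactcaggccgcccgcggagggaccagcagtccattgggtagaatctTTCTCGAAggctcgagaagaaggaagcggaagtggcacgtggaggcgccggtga
Dnajb6: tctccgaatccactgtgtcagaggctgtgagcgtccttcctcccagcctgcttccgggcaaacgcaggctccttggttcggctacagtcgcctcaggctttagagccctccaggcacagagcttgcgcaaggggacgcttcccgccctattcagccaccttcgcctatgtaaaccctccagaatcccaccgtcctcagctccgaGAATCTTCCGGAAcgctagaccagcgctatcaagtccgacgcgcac
The Hspe1 window is chr1:55087898-55088147 on the plus strand and the Hspd1 window chr1:55087933-55088182 on the minus strand. That of Hsph1 is chr5:149636316-149636565 on the minus strand and holds only a 2-unit match, and that of Dnajb6 is chr5:29735648-29735897 on the plus strand. Hspd1, Hsph1 and Dnajb6 each have a further annotated start, whose window is not shown. The further Hspd1 window, chr1:55088244-55088493, holds no 3-unit or 2-unit element. Those of Hsph1 and Dnajb6 hold the same element as the window shown. The Hsph1 element, at chr5:149636362-149636369, lies before both starts that have a window. It lies within the annotated gene, whose outer end is at 149636498. Among the 26 tested members with a window, the 3 with a 3-unit element had log2 fold changes of 0.00 to 0.44 and the 23 without one of -0.27 to 0.45, so both sets covered low and high values. Of the 3, Hspd1 and Hspe1 share 1 element. Only exact matches were searched for, so a window counted as without an element may still hold an imperfect repeat.

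None of the 33 tested chaperone genes passed the test between the forms, and all differences were small. Each log2 fold change compares normalized intensities, truncated over full-length NELF-B, over 3 arrays per form, limma gave each its standard error (SE), and the values ran from -0.27 for Pfdn5 to 0.45 for Hsph1. With limma and Benjamini-Hochberg adjustment over all genes, 0 of 33 had an adjusted p under 0.05, against 1.60% of all genes tested (0.512% higher and 1.09% lower), and the lowest adjusted p was 0.0865, that of Hspd1. Without adjustment, 6 of 33 had p under 0.05, against 20.1% of all genes. Of these, 5 were higher (9.76% of all genes) and 1 lower (10.4% of all genes) in truncated NELF-B MEFs. The forms were free of overlap, array by array, for 10 of the 33, 9 of them higher (12.9% of all genes) and 1 lower (12.8% of all genes) with the truncated form, where the background in either direction was 25.7%. The log2 fold change was above 0 for 23 of the 33 members, against 51.7% of all genes, and the median was 0.11, against 0.01 for all genes. Among the 23 are the dim Hsf2, Cct2 and Cct7, above background on more truncated than full-length arrays. Cct7 also counts among the 5 and the 9 higher members above. Over the 28 members above background on all 6 arrays the median was 0.12, against 0.01 for all genes filtered in that way. The 95% confidence interval lay within 2-fold either way for all 33 tested members (97.2% of all genes) and within 1.5-fold for 26 (70.0% of all genes). Without truncated replicate 3, 1 of 33 members passed (3.03%), Hsph1, close to the 3.07% of all genes that passed there. In 4 of the other alternatives, namely no background correction, a normexp correction without negative controls, the series matrix values and a variance trend with robust eBayes, Hspd1, Hsph1 and Cct3 passed, all higher with truncated NELF-B. These 3 of 33 (9.09%) stand beside 7.85%, 7.04%, 8.13% and 8.04% of all genes that passed under those alternatives in the same order, a share near the background.

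**Figure D1:**
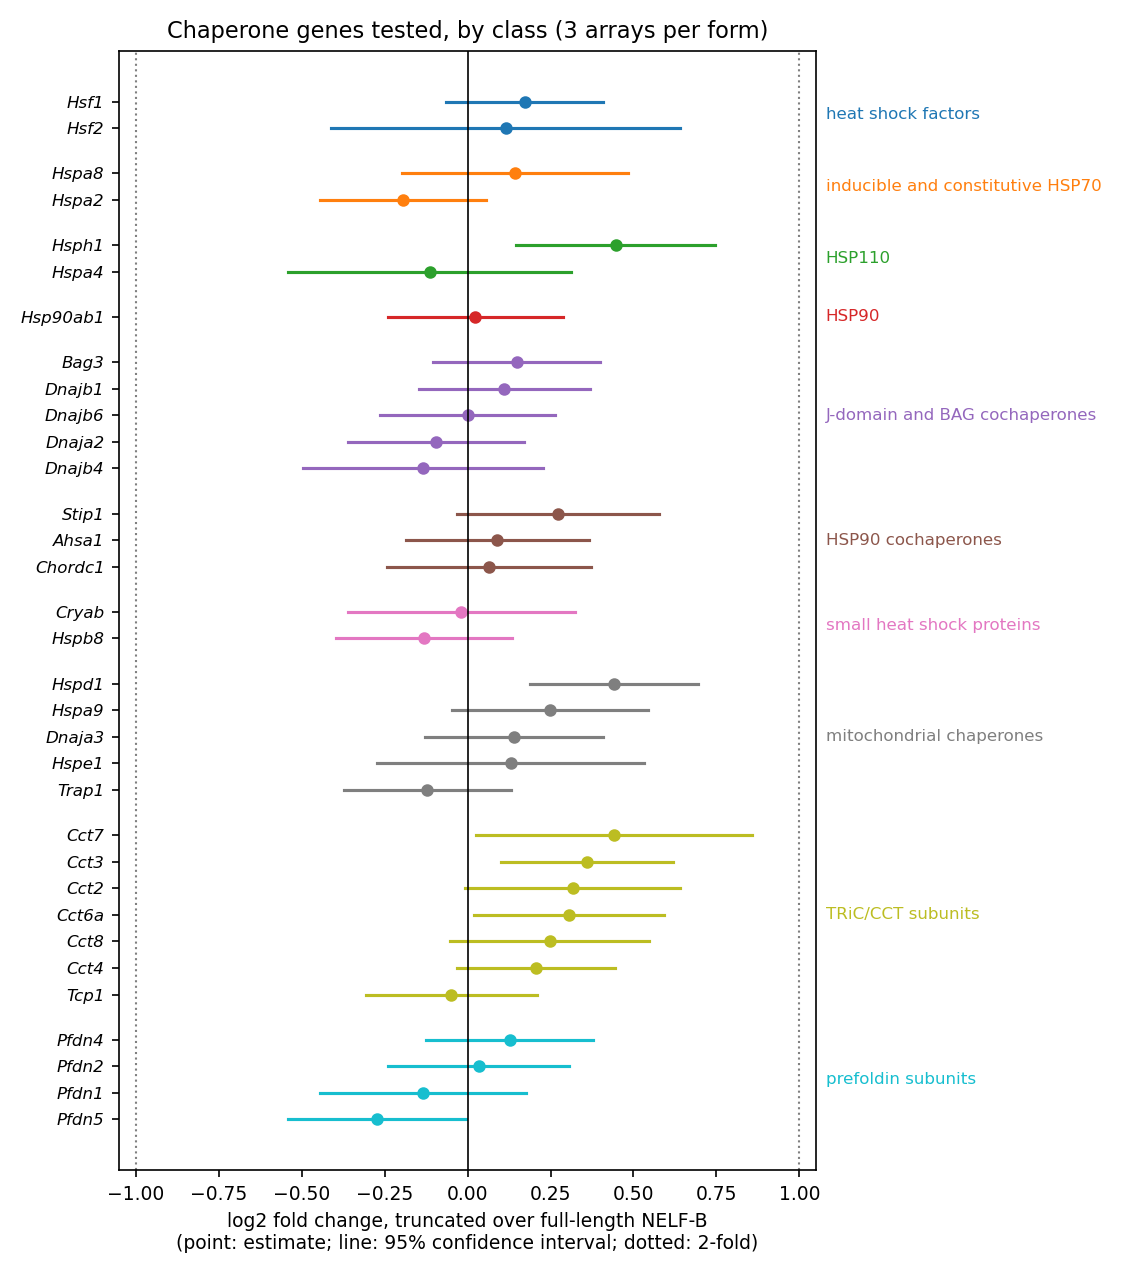
Log2 fold change, truncated over full-length NELF-B, of the 33 tested chaperone genes in rows by class, with points for the estimates, lines for the 95% confidence intervals and dotted lines at 2-fold. All 33 intervals lie between the dotted lines. Right of 0 lie 6 of the 7 TRiC/CCT subunits, the dim Cct2 and Cct7 among them, and the 4 prefoldin subunits lie on both sides of 0.

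The classes differed in their medians, which are given as descriptions with no test. The median log2 fold change was 0.31 for 7 TRiC/CCT subunits. Without Cct2 and Cct7, which were dim, it was 0.25 for the 5 subunits above background on all 6 arrays. The median of the 2 heat shock factors was 0.14, but Hsf2 passed the filter mainly through the truncated arrays, and Hsf1 alone stood at 0.17. For 5 mitochondrial chaperones the median was 0.14, for 2 HSP110 genes 0.17 and for 3 HSP90 cochaperones 0.09. It was 0.00 for 5 J-domain and BAG cochaperones, -0.03 for 2 HSP70 genes, -0.05 for 4 prefoldin subunits and -0.08 for 2 small heat shock proteins, and the 1 tested HSP90 gene stood at 0.02. These medians cover only the members that passed the filter on dim probes. The medians of the HSP70, HSP90, J-domain and BAG, and prefoldin genes changed sign under at least 1 of 17 alternatives, and the other class medians under none of them. Leaving out 1 array moved most class medians by over 1.5 times. The TRiC/CCT median over 7 subunits, with the dim Cct2 and Cct7 among them, ran from 0.21 to 0.37 over arrays left out. No such range is given for the 5 subunits above background on all 6 arrays. The heat shock factor median was 0.072, 0.31 and 0.048 without full-length replicates 1, 2 and 3, and the HSP110 median was 0.086 without full-length replicate 1. The HSP90 cochaperone median was 0.147, 0.153 and 0.145 without truncated replicates 1 and 3 and full-length replicate 1. The small heat shock protein median was -0.120, -0.019, -0.020 and -0.124 without truncated replicates 1 and 3 and full-length replicates 1 and 2. The mitochondrial median was 0.24 and 0.21 without truncated replicates 2 and 3, and that of the 33 tested members 0.071 without full-length replicate 2. The prefoldin median was 0.034 over the subunits detected on all 6 arrays.

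The transcript of Hsf1, the master activator of the heat shock response, had log2 intensities of 11.86, 11.88 and 11.89 in truncated NELF-B MEFs, against 11.74, 11.79 and 11.59 in full-length NELF-B MEFs. Every truncated array exceeded every full-length one, by little, and the log2 fold change of 0.17 ± 0.11 (SE) did not pass (adjusted p = 0.401, limma). The probe of Hsf2, a related factor, was above background on 3 truncated arrays and on 1 full-length array, with a log2 fold change of 0.11 ± 0.23 and overlapping arrays.

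Of the genes that HSF1 is known to raise under stress, none passed. Hsph1, an HSP110 protein that exchanges the nucleotide of HSP70, had log2 intensities of 10.81, 10.89 and 10.46 with the truncated form, against 10.32, 10.24 and 10.26 with the full-length form. The groups did not overlap, and truncated replicate 3 came closest to the other form. Its mean was 10.72 ± 0.23 in truncated NELF-B MEFs and 10.27 ± 0.04 in full-length NELF-B MEFs (SD, n = 3 each), a 1.36-fold difference (log2 fold change 0.45 ± 0.13 SE, 95% interval 0.15 to 0.75, adjusted p = 0.115, limma). Without truncated replicate 3 the log2 fold change was 0.58 (adjusted p = 0.0461, limma). Bag3, a BAG protein that couples HSP70 to small heat shock proteins, read 11.77, 11.59 and 11.73 with the truncated form, against 11.63, 11.60 and 11.43 with the full-length form. The Bag3 arrays overlapped, and its log2 fold change was 0.15 ± 0.11 (adjusted p = 0.497, limma). Dnajb1, the J-domain partner of inducible HSP70, had a log2 fold change of 0.11 ± 0.11 with overlapping arrays. The inducible HSP70 gene Hspa1a, the clearest marker of a heat shock response, had intensities of 124.9 to 157.6 and was above background on 1 truncated array and on no full-length array, so it was not tested. Its near-identical copy Hspa1b could be read by the same probe, which was not checked.

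The constitutive HSP70 genes and the other J-domain genes gave values on both sides of 0. Hspa2, an HSP70 best known from the testis, had log2 intensities of 8.74, 8.63 and 8.81 with the truncated form, against 8.81, 8.93 and 9.02 with the full-length form. Truncated replicate 3 and full-length replicate 1 stood at the same level, and the log2 fold change was -0.19 ± 0.11 (adjusted p = 0.366, limma). A further Hspa2 probe gave -0.16 ± 0.15 in a fit of every probe. Hspa8, the main constitutive HSP70, stood at 0.14 ± 0.15, and Hspa4, an HSP110 protein, at -0.11 ± 0.19. Dnaja2 (-0.09 ± 0.12), Dnajb4 (-0.13 ± 0.16) and Dnajb6 (0.00 ± 0.12) are J-domain proteins that deliver clients to HSP70, and none of the 3 had arrays without overlap. The second Dnajb4 probe above background had the other sign, at 0.12 ± 0.15.

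HSP90 and its tested cochaperones stood near 0 or slightly above it, and none passed. Hsp90ab1, the constitutive cytosolic HSP90, had log2 intensities of 13.90, 13.66 and 13.69 with the truncated form, against 13.61, 13.82 and 13.75 with the full-length form. These arrays overlapped throughout, and the log2 fold change of 0.02 ± 0.12 had a 95% interval from -0.24 to 0.29 (adjusted p = 0.939, limma). Its 2 other probes gave 0.06 ± 0.13 and -0.11 ± 0.14. Stip1, which bridges HSP70 and HSP90, read 11.51, 11.23 and 11.15 with the truncated form, against 11.13, 11.08 and 10.85 with the full-length form. The Stip1 groups did not overlap, and the lowest truncated array lay close to the highest full-length array, at 0.27 ± 0.13 as a log2 fold change (adjusted p = 0.296, limma). Ahsa1, which stimulates the HSP90 ATPase, stood at 0.09 ± 0.12, and Chordc1, an HSP90-binding protein, at 0.06 ± 0.14.

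Of the small heat shock proteins, Hspb8, a partner of Bag3, had log2 intensities of 7.04, 6.83 and 7.08 with the truncated form, against 7.21, 7.00 and 7.13 with the full-length form. The Hspb8 arrays overlapped and the log2 fold change was -0.13 ± 0.12 (adjusted p = 0.576, limma). Cryab, alpha-B crystallin, stood at -0.02 ± 0.15. The Hspb1 probe, for HSP25 of the mouse, was not above background on any array, with intensities of 135.2 to 150.6.

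**Figure D2:**
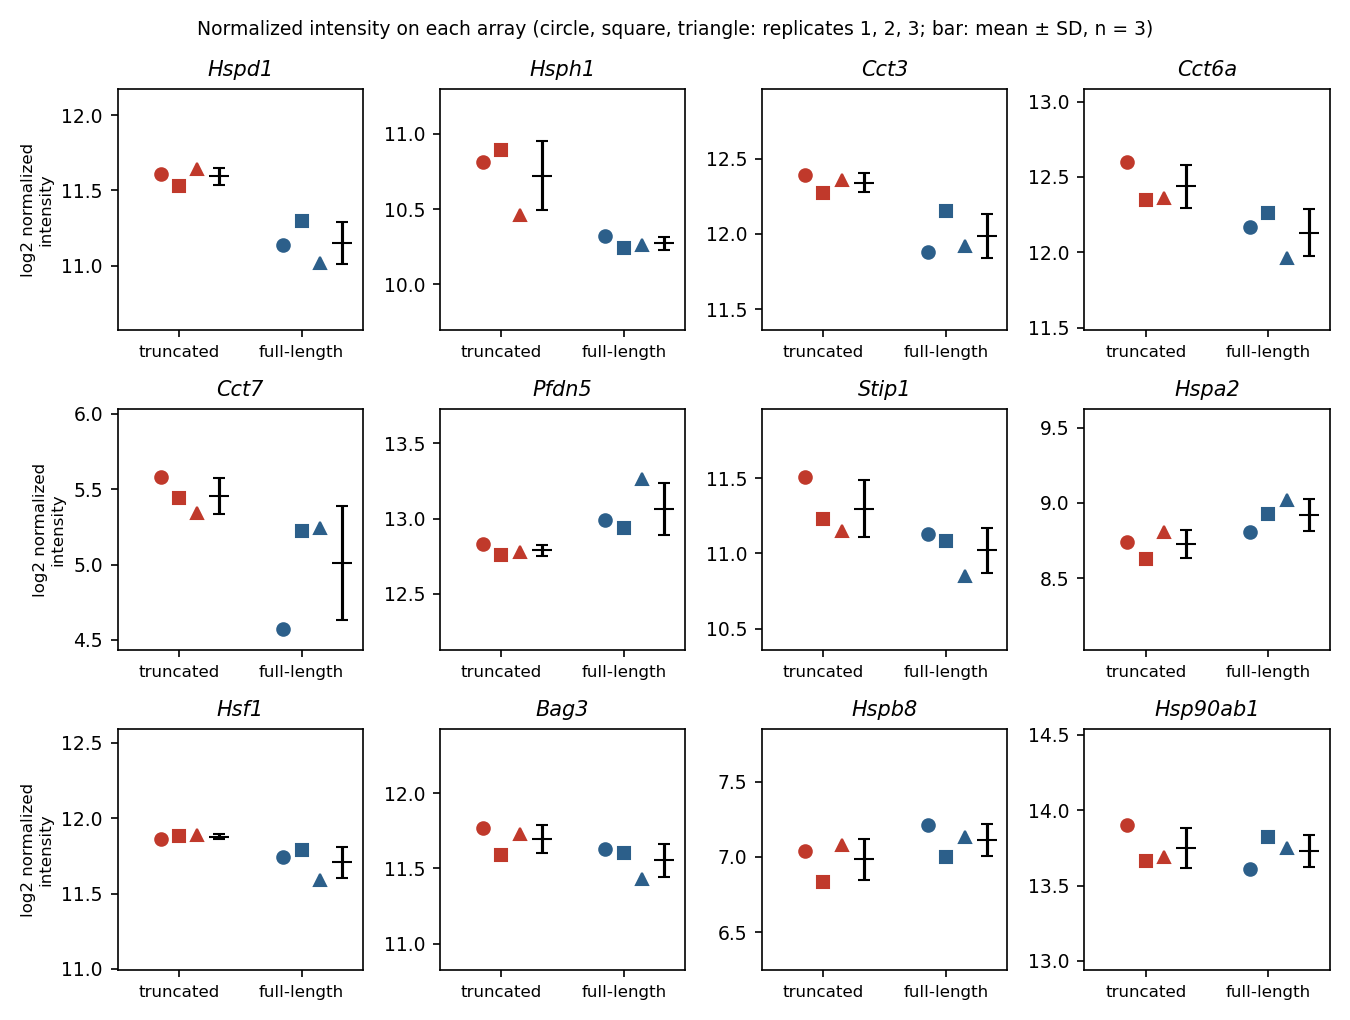
Log2 normalized intensity on each array for 12 chaperone genes, truncated NELF-B left and full-length NELF-B right in each panel, with symbols for replicates 1 to 3 and bars for mean ± SD (n = 3), every panel spanning the same log2 range. The groups do not overlap for Hspd1, Hsph1, Cct3, Cct6a, Cct7, Stip1 and Hsf1, all higher with truncated NELF-B, and for Pfdn5, which is lower.

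Among the mitochondrial chaperones, Hspd1, the HSP60 chaperonin of the matrix, had the lowest p of all members. It had log2 intensities of 11.61, 11.53 and 11.64 in truncated NELF-B MEFs, against 11.14, 11.30 and 11.02 in full-length NELF-B MEFs. The groups were well apart, with means of 11.59 ± 0.05 for the truncated form and 11.15 ± 0.14 for the full-length form (SD, n = 3 each). The difference was 1.36-fold (log2 fold change 0.44 ± 0.11 SE, 95% interval 0.19 to 0.70, adjusted p = 0.0865, limma), and its p ranked 364 of the 8990 genes. The second Hspd1 probe had log2 intensities of 9.42, 9.85 and 9.55 with the truncated form, against 9.42, 9.33 and 9.39 with the full-length form. Replicate 1 was equal in both forms there, and this probe gave 0.23 ± 0.13 in a fit of every probe (adjusted p = 0.397, limma).

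Hspe1, the HSP10 lid of that chaperonin, whose promoter window shares the heat shock element of Hspd1, had log2 intensities of 9.24, 9.26 and 8.92 with the truncated form, against 8.79, 8.85 and 9.39 with the full-length form. The Hspe1 arrays overlapped, full-length replicate 3 being the highest of all, and the log2 fold change was 0.13 ± 0.18 (95% interval -0.27 to 0.53). Hspa9, the HSP70 of mitochondria that pulls in proteins and folds them, stood at 0.25 ± 0.13 without overlap, and its second probe gave 0.24 ± 0.13 (adjusted p = 0.329 and, in the fit of every probe, 0.370, limma). Dnaja3, its J-domain partner, stood at 0.14 ± 0.12. Trap1, the HSP90 of mitochondria, was the 1 of 5 with a negative value, -0.12 ± 0.11.

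The TRiC/CCT subunits had the highest median of the classes. Cct3 had log2 intensities of 12.39, 12.27 and 12.36 in truncated NELF-B MEFs, against 11.88, 12.15 and 11.92 in full-length NELF-B MEFs. Its groups did not overlap, and full-length replicate 2 came closest to the truncated form (log2 fold change 0.36 ± 0.11 SE, 1.28-fold, 95% interval 0.10 to 0.62, adjusted p = 0.134, limma). The second Cct3 probe gave 0.25 ± 0.16. Cct6a read 12.60, 12.35 and 12.36 with the truncated form, against 12.17, 12.26 and 11.96 with the full-length form. The Cct6a groups did not overlap either, at 0.31 ± 0.13 as a log2 fold change (adjusted p = 0.223, limma).

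Cct8 (0.25 ± 0.13), with overlapping arrays, and Cct4 (0.21 ± 0.11), with none, were also above 0. Tcp1, the founding subunit, stood at -0.05 ± 0.11 and its second probe at 0.04 ± 0.14, with overlapping arrays. These 5 subunits were above background on all 6 arrays, and their median was 0.25. The other subunits were dim. The Cct7 probe read 5.58, 5.44 and 5.34 with the truncated form, against 4.57, 5.22 and 5.24 with the full-length form. It was above background on 3 truncated and 2 full-length arrays, and the low full-length replicate 1 set much of its log2 fold change of 0.44 ± 0.18 (adjusted p = 0.224, limma), which was 0.22 without that array and 0.13 without background correction. The Cct2 probe was above background on 3 truncated arrays and on 1 full-length array, at 0.32 ± 0.14 with overlapping arrays. Both passed the filter with fewer full-length than truncated arrays above background, so they add no support to the class. The Cct5 probe was above background on 1 full-length array, with intensities of 130.7 to 155.0, and was not tested.

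The prefoldin subunits, which hand actin and tubulin chains to TRiC/CCT, did not share a direction. Pfdn5 had log2 intensities of 12.83, 12.76 and 12.78 in truncated NELF-B MEFs, against 12.99, 12.94 and 13.26 in full-length NELF-B MEFs. It was the only member whose truncated arrays all lay below the full-length arrays, at -0.27 ± 0.12 as a log2 fold change (adjusted p = 0.242, limma). Its second probe gave -0.14 ± 0.16. Pfdn4 stood at 0.13 ± 0.11, Pfdn2 at 0.03 ± 0.12 and the dim Pfdn1 probe at -0.13 ± 0.14, all with overlapping arrays.

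The remaining members had no probe that passed the filter. Hsp90aa1, the inducible HSP90, had 2 probes with intensities of 117.3 to 160.6, above background on 2 truncated arrays for one probe and on 1 full-length array for the other. Dnaja1, a J-domain protein, had 2 probes with intensities of 126.9 to 188.7, above background on 1 truncated and 1 full-length array at most. Hspa4l, an HSP110 protein, had 1 probe with 127.0 to 140.8 that was not above background on any array. For these genes, as for Hspa1a, Hspb1 and Cct5, no difference between the forms could be measured.

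Other genes of cytosolic and mitochondrial folding showed a similar picture. Of 63 listed, 45 were tested and 0 passed (limma, adjusted p under 0.05 over all genes), with 35 values above 0 (51.7% of all genes) and a median log2 fold change of 0.07. Without adjustment, 4 of the 45 (8.89%) had p under 0.05, all higher with truncated NELF-B, a share near the 9.76% of all genes. By the lowest p these were Bag4, a BAG protein (0.36 ± 0.11), Dnajc2, a J-domain protein of the ribosome (0.35 ± 0.11), Uxt, a prefoldin-like protein (0.32 ± 0.12), and Cdc37l1, a relative of the kinase cochaperone Cdc37 (0.23 ± 0.10). Their adjusted p ran from 0.122 to 0.247 (limma). All 4 were free of overlap between the forms, but they were picked by a p that rests on the same arrays. Of the 45, 7 were higher without overlap (15.6%, against 12.9% of all genes) and 1 was lower (2.22%, against 12.8%). Of the actins and tubulins, the main clients of TRiC/CCT, 11 of 13 were tested and 0 passed (limma). Each of the 11 was above 0 (51.7% of all genes), with a median of 0.21. Before adjustment, 3 of the 11 (27.3%) had p under 0.05, all higher with truncated NELF-B, against 9.76% of all genes. The Tubb3 probe was dim, above background on 2 truncated arrays and 1 full-length array. Tubg1, gamma-tubulin of the centrosome, stood at 0.40 ± 0.13, Tubb6 at 0.35 ± 0.12, Tubb4b at 0.31 ± 0.13 and Tuba1c at 0.21 ± 0.12. Tubulin genes are close paralogs whose probes could also read each other.

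Genes of other kinds moved with the forms in the same samples, in lists chosen with earlier results of these data known. Of 20 DNA replication genes, 16 were tested, with a median log2 fold change of 0.53. Of the 16, 5 rose (0.512% of all genes) and 0 fell (1.09% of all genes) at an adjusted p under 0.05 (limma). Over the genes detected on all 6 arrays, each centred on its own mean, the mean of that list was 0.37, 0.27 and 0.09 on truncated replicates 1, 2 and 3, against -0.23, -0.17 and -0.32 on full-length replicates 1, 2 and 3. The mean of the 5 TRiC/CCT subunits detected on all 6 arrays was 0.21, 0.05 and 0.06 on the truncated arrays, against -0.14, 0.02 and -0.20 on the full-length arrays. Truncated replicate 1 was the highest array in both lists, and full-length replicate 3 was the lowest in both. Whether growth state had a part in the chaperone values was not tested. The mean of the mitochondrial chaperones was 0.13, 0.03 and 0.09 with the truncated form, against -0.14, -0.02 and -0.09 with the full-length form, with no overlap. The mean of the 3 prefoldin subunits detected on all 6 arrays was -0.05 to 0.03 with the truncated form, against -0.13 to 0.18 with the full-length form, which overlapped.

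**Figure D3:**
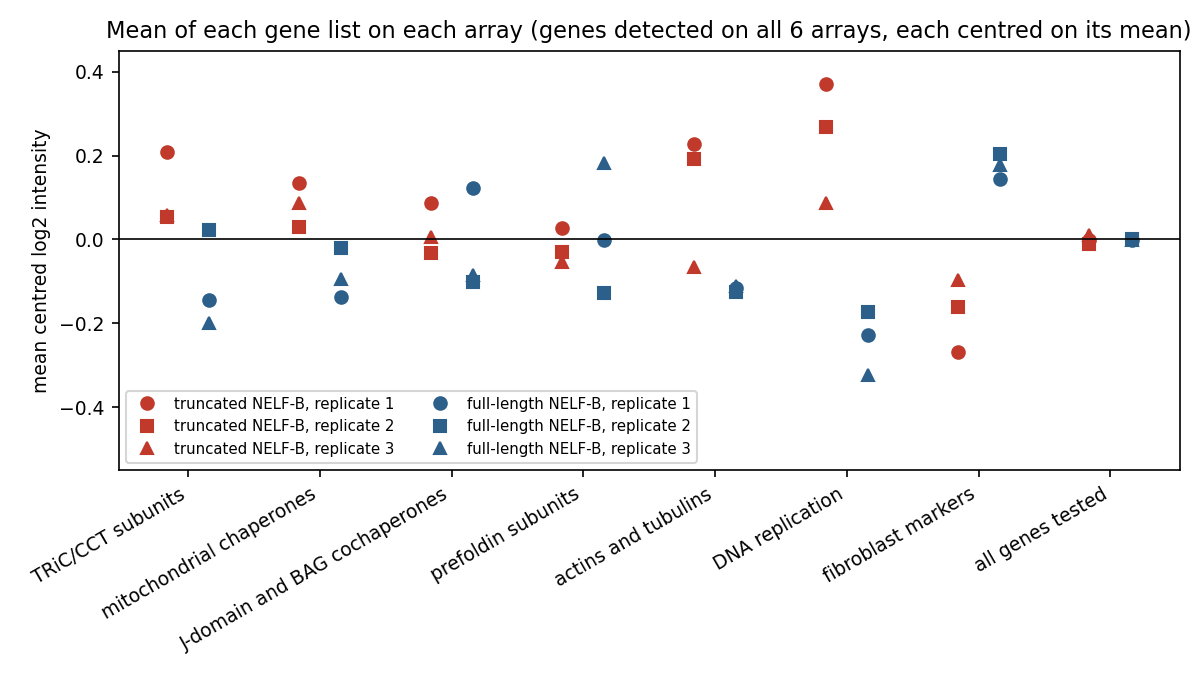
Mean centred log2 intensity on each array of 7 gene lists and of all genes, over the genes detected on all 6 arrays, truncated NELF-B left and full-length NELF-B right for each list, symbols for replicates 1 to 3. The TRiC/CCT and mitochondrial chaperone means lie higher on the truncated arrays, less far apart than those of the DNA replication list, while the J-domain and BAG and the prefoldin means overlap.

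The arrays had median intensities of 143 to 152, with 46.4% to 48.7% of probes above background, and the number of arrays limits the precision. Of 11 fibroblast markers with a probe, 9 were above background on all 6 arrays, and Thy1 and Lum on none. Dcn fell, at -0.79 ± 0.14 (adjusted p = 0.0441, limma), and 6 of the 9 were lower with no overlap (12.8% of all genes). The fibroblast marker mean was -0.27 to -0.10 on the truncated arrays, against 0.14 to 0.20 on the full-length arrays. In bulk samples, fewer cells of a type and less RNA per cell cannot be told apart. Of 7 leukocyte markers 3 were above background on 3 or more arrays, of 5 endothelial and 5 epithelial markers 1 each, and Ptprc, Pecam1, Cdh5, Krt5 and Krt14 on at most 1 array.

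The 3 members that passed under some alternatives kept their direction under all 17. The log2 fold change of Hspd1 ran from 0.33 to 0.51 with adjusted p from 0.00658 to 0.253 (limma), and it passed in 4. That of Hsph1 ran from 0.36 to 0.58 with adjusted p from 0.0150 to 0.318, and it passed in 5. That of Cct3 ran from 0.30 to 0.44 with adjusted p from 0.0171 to 0.344, and it passed in 4. The log2 fold changes stayed above 0 while the adjusted p moved across the threshold.

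**Figure D4:**
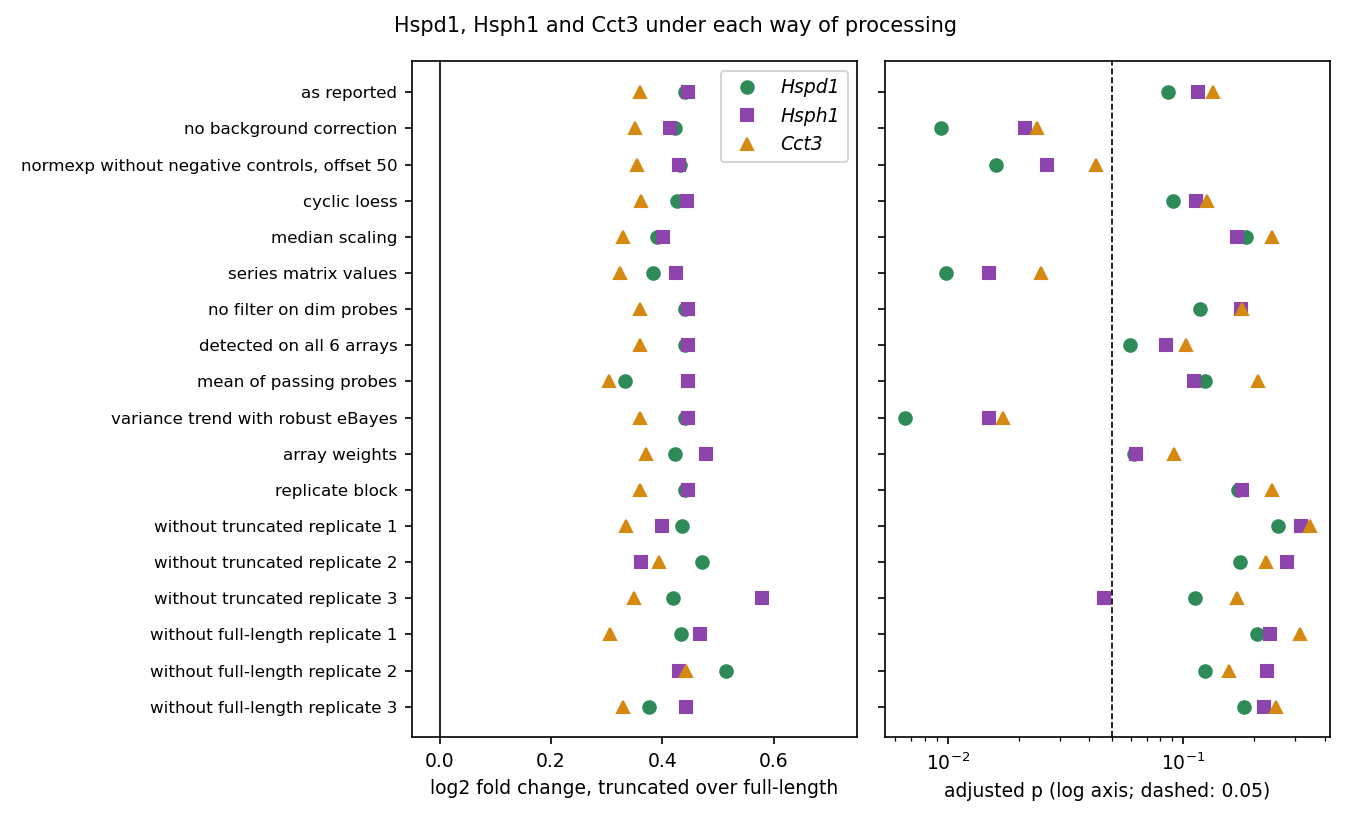
Log2 fold change, truncated over full-length NELF-B (left), and adjusted p on a log axis (right) of Hspd1, Hsph1 and Cct3, as reported and under 17 alternatives in rows, with the dashed line at 0.05. All points on the left lie above 0, and on the right all 3 genes lie below the line in 4 rows and Hsph1 alone in the row without truncated replicate 3.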

How the data were processed

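Biotin-labelled RNA from 6 samples was measured on Illumina bead arrays in 1 colour, per the labels' protocols. The authors deposited a table of non-normalized intensity per probe and array, beside a detection p-value, per the file headers, and 0 of its value columns were left unused. GenomeStudio, version not given, made these values, per the submitters' processing notes. The deposited series matrix holds linear intensities with column medians of 143.1 to 143.3. Each column matched its own array best, and their equal distributions look quantile normalized, which no label states, so it served only as an alternative. Chip and scan date were not given in any source used.

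Groups and replicate numbers came from the sample titles. Probes were named by RefSeq accession (24202 of 25697), current symbol (536) or unique synonym (295) against GRCm38.p6. The neqc steps of limma 3.58.1 (R 4.3.3) were applied: normexp background correction, with negative controls inferred from the detection p-values, an offset of 16, quantile normalization and log2, which understates folds of dim probes. Probes detected at p under 0.05 on 3 or more arrays were kept (12227), and the brightest represented its gene. Then lmFit and eBayes compared the forms, adjusting p by Benjamini-Hochberg over 8990 genes at a threshold of 0.05. The fit was tested on simulated data, and no 2 arrays held identical values. Values on every array are given for members with an unadjusted p under 0.05 and for the member with the lowest p in each class, and for Hspe1 and the second Hspd1 probe, chosen after their values were seen. The members and lists were chosen with earlier results of these data known. Figures were drawn with matplotlib 3.10.9.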

Additional observations from a re-analysis of the deposited data

How the results depend on the processing

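The count of chaperone genes that passed was 0 as reported and 3 with no background correction, with normexp without negative controls (offset 50), with the series matrix values and with a variance trend and robust eBayes. It was 0 to 1 when each array was left out. The other folding genes and TRiC/CCT clients that passed numbered 0 as reported and 4, 1, 5 and 3 under those 4 alternatives in that order, and 0 to 1 when each array was left out. Over all genes the count was 144 as reported, 706 with no background correction, 633 with that normexp, 731 with the series matrix values, 723 with the variance trend, 355 with array weights, 252 with probes detected on all 6 arrays, 81 with median scaling and 33 with no filter on dim probes. Leaving out single arrays gave 0 to 276: for the truncated form 0 when replicate 1, 9 when replicate 2 and 276 when replicate 3 was left out, and for the full-length form 0, 0 and 6. In the refits with 0, the genes with an unadjusted p under 0.05 numbered 1196, 1434 and 1547 (limma). No pairing by replicate number was seen. Deviations from the group means correlated at 0.03, -0.16 and -0.14 between samples of the same number, and at -0.04 to 0.18 between samples of different numbers. With 3 arrays per form these values cannot settle whether a number marks a shared culture or day, which no label states. With the replicate block 33 genes and 0 chaperone genes passed.

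Of the class medians, that of all tested members was 0.060 with median scaling, which moved the median of all genes to -0.05, that of HSP70 0.094 and that of HSP90 0.21 with no filter. The J-domain and BAG median was -0.054 with median scaling, -0.047 with no filter, 0.056 with detection on all 6 arrays, -0.035 with array weights and -0.020 to 0.088 when each array was left out. The mitochondrial median was 0.081 with median scaling and 0.11 to 0.24 over arrays left out, and the prefoldin median 0.034 with detection on all 6 arrays and -0.083 to 0.0089 over arrays left out. The TRiC/CCT median stayed between 0.19 and 0.37 over 17 alternatives. It held the dim Cct2 and Cct7 except with detection on all 6 arrays, where it was 0.25. Hsp90ab1 changed sign, to -0.018 with median scaling and -0.0067 with the mean of its probes, with a range of -0.053 to 0.071 over arrays left out. The cause of these moves was not tested. Dim probes limit what could be measured for 6 members.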
